A study of Mus musculus with 6 samples.

Results

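Aggrecan, its link proteins, the matrilins and their partners were described as 10 genes, *Acan*, *Vcan*, *Hapln1*, *Hapln3*, *Matn1*, *Matn2*, *Matn3*, *Matn4*, *Comp* and *Hspg2*. They were chosen by name, and all 10 were found among the 47729 genes of the table through their Ensembl identifiers. RNAseq covered 3 Control and 3 LS1 mice aged 14 days, and each library pooled the upper epiphysis of both tibiae of 1 mouse. Control (ICR) is a random-bred mouse line, and Longshanks 1 (LS1) is 1 line selected from the same CD-1 background for tibiae that are long for the body mass, with the mice of a group taken from different families. No mouse carried an engineered allele or received a treatment. The sampled piece held bone, marrow and the cartilage of the joint surface, the growth plate and the ossification center above it, together with the metaphysis.

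Aggrecan is the large chondroitin sulfate proteoglycan of cartilage, and its many charged chains draw in the water that lets the tissue resist compression. In the matrix, aggrecan monomers are fastened to long hyaluronan chains by link protein, and matrilins and COMP bridge these aggregates to the fibrils of collagen II, IX and XI. In the growth plate this network surrounds the chondrocyte columns, and loss of aggrecan or of link protein in mice leads to short limbs.

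Each of the 10 genes had a mean of at least 20 reads, so all were tested, among 19308 genes in all. Values are read counts over a size factor that the authors estimated for each library, called normalized counts here. The comparison used limma on log2(value + 1) with Benjamini-Hochberg adjustment over all tested genes. The libraries held 68803249 to 76581954 reads in Control and 82227711 to 88745366 in LS1, and the 10 genes took 0.538% to 0.633% of them in Control and 0.805% to 0.980% in LS1. LS1 replicate 3 stood apart from its group, at -4.29 on the first principal component of all tested genes. The other LS1 libraries lay at 43.7 and 50.1 and the Control libraries between -41.5 and -22.1.

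Per length of exon, *Acan*, *Matn3*, *Hapln1*, *Comp* and *Matn1* were the 5 most abundant of the 10 genes in both lines, and *Hapln3* was the least abundant. In Control the level of *Acan* was 23807 ± 2268 normalized counts per kilobase of exon (SD, n = 3), followed by *Matn3* at 20217 ± 2812 and *Hapln1* at 18404 ± 2965 (SD, n = 3 each). *Comp*, at 14494 ± 2184 per kilobase, came next, and the ranges of neighbours in this order overlapped from *Acan* down to *Comp*. *Matn1* followed at 8326 ± 688 per kilobase and *Hspg2* at 1960.0 ± 97.3, each with a range apart from its neighbours. *Matn2*, *Vcan* and *Matn4* lay between 491 and 587 per kilobase with overlapping ranges, and *Hapln3* was at 131 ± 14.2, below the range of *Matn4*.

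**Figure D1:**
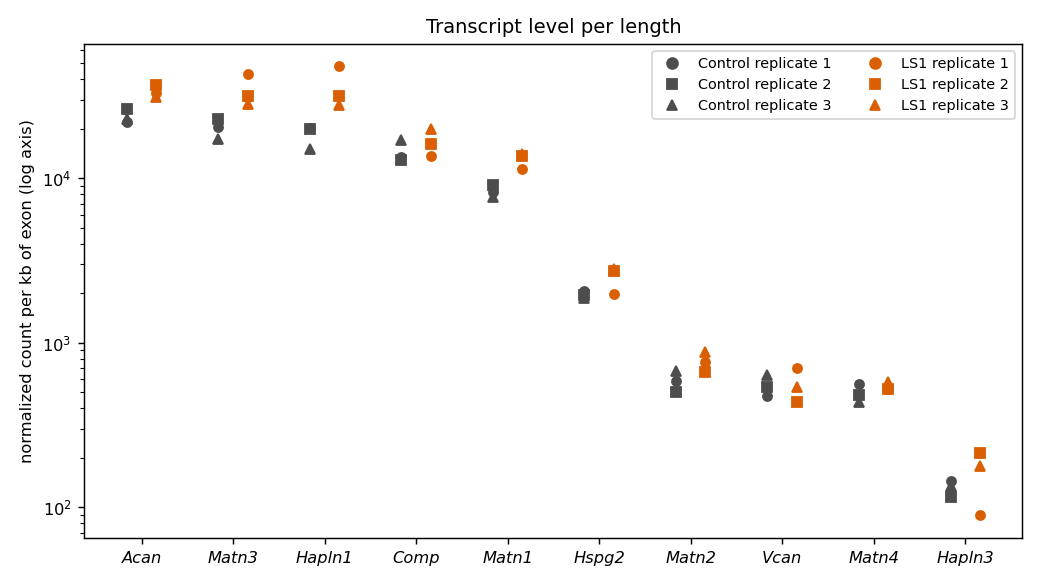
Normalized count per kilobase of merged exon on a log axis, with 1 point per library, for the 10 genes in the order of their Control mean. The most abundant gene in Control, *Acan*, stood at 23807 and the least abundant, *Hapln3*, at 131 per kilobase.

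In LS1 the leading level was that of *Hapln1*, 35837 ± 10566 per kilobase (SD, n = 3), with *Matn3* at 34385 ± 7879 and *Acan* at 33616 ± 2904, and the ranges of these neighbours overlapped. *Comp* stood below them at 16556 ± 3089.9 per kilobase, with a range apart from that of *Acan*. As a percentage of the *Acan* level in the same library, *Hapln1* per kilobase ran from 65.4% to 91.2% for Control and from 85.7% to 146% for LS1. In both lines the hyaluronan-binding proteoglycan transcripts were nearly all aggrecan: *Acan* made up 97.3% to 98.0% in Control and 97.9% to 98.8% in LS1 of the summed *Acan* and *Vcan* levels per kilobase. *Hapln1* likewise made up 99.1% to 99.4% in Control and 99.3% to 99.8% in LS1 of the summed *Hapln1* and *Hapln3* levels. Of the matrilins, *Matn3* took 66.3% to 69.5% in Control and 64.6% to 77.2% in LS1 of their summed level and *Matn1* 27.5% to 29.5% in Control and 20.5% to 32.1% in LS1. *Matn4* took 1.45% to 1.87% of it in Control against 0.930% to 1.33% in LS1, the 1 matrilin share whose groups did not overlap. With the longest coding transcript as the length, *Matn4* moved above *Matn2* and *Vcan* in Control and above *Vcan* in LS1, and no other order changed.

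The comparison of LS1 with Control asks whether the genes of this network differ in level between 1 line bred for long tibiae and 1 random-bred line. With 1 line on each side, an effect of the selection cannot be told apart from any other difference between the lines. The log2 fold changes of the 10 genes ran from 0.0011 to 0.94, with a median of 0.36, against a median of 0.0054 over all tested genes. All 10 were positive in the main fit, but that of *Vcan*, the smallest, was negative in 7 of 16 alternative fits. The share of positive values over all tested genes was not counted. In bulk tissue, a larger share of cartilage cells and more RNA per cartilage cell cannot be told apart. Of the 10, 5 had an unadjusted p-value under 0.05, *Hapln1*, *Matn3*, *Matn1*, *Acan* and *Matn2*, all higher in LS1, against 12.9% of all tested genes in either direction and 7.08% in that direction. With adjustment over all genes, 0 of the 10 passed with limma, where 0.0725% of all genes did, and 0 passed with edgeR. DESeq2, the tool the authors used, called 3 of the 10 on the recovered reads, *Hapln1*, *Matn1* and *Matn3*, against 2.38% of all genes. In *Acan*, *Hapln1*, *Matn1* and *Matn3*, 4 of the 10 genes, all LS1 libraries lay above all Control libraries, which held for 10.3% of all tested genes. *Hapln1* and *Matn3* were picked by the study from these libraries, so their place among the higher genes is not independent evidence. The study then measured both by qPCR in the dissected growth plate alone, in mice of a later generation. There neither gene differed significantly from Control in LS1 or in LS2, the second selected line.

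**Figure D2:**
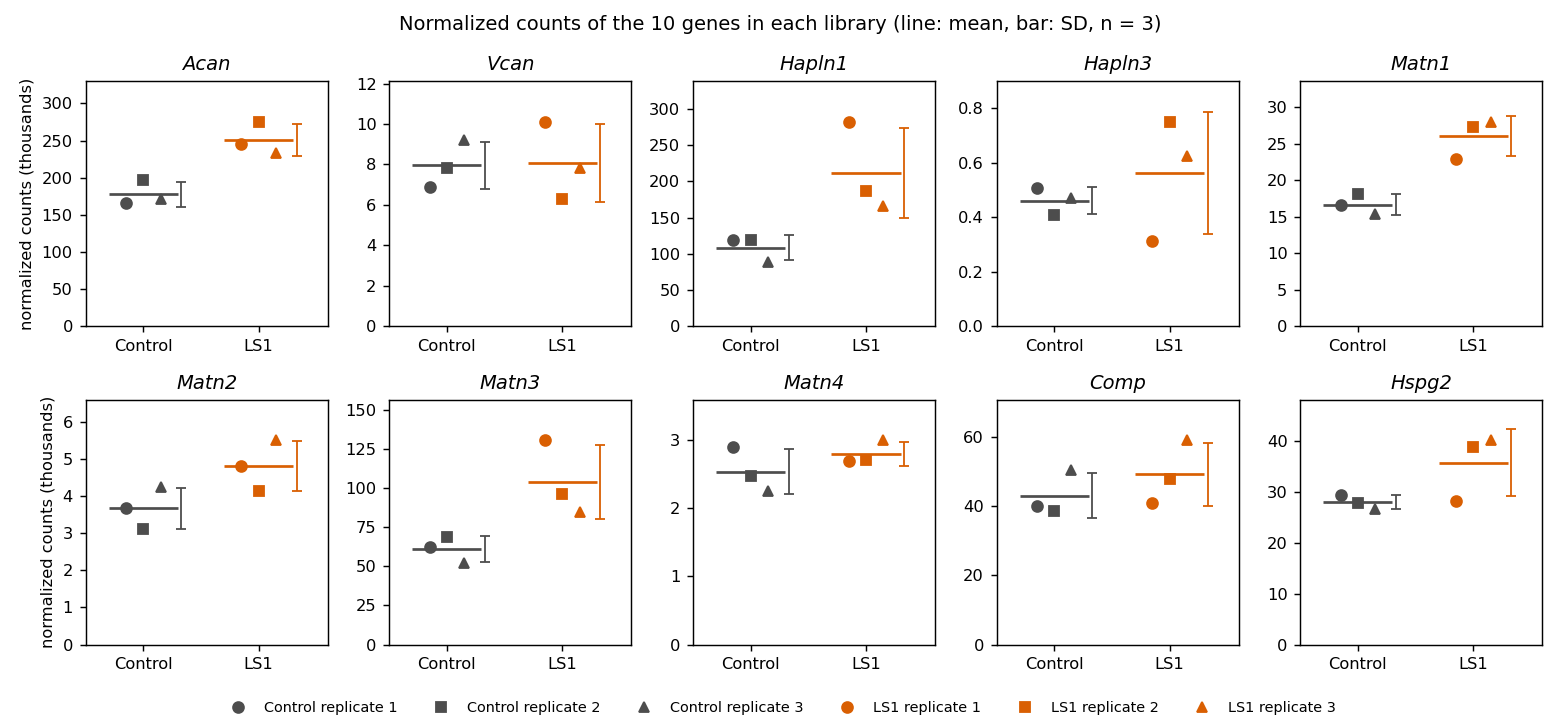
Normalized counts divided by 1000 (vertical axes from 0) for each gene in the 3 Control and 3 LS1 libraries, with the group mean as a line and the SD as a bar. The groups are separate for *Acan*, *Hapln1*, *Matn1* and *Matn3* and overlap for the other 6 genes.

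The lecticans, proteoglycans that bind hyaluronan through their N-terminal domain, are represented by *Acan* and *Vcan*. *Acan* (ENSMUSG00000030607) lies on chromosome 7 of GRCm38 from 79053483 to 79115099. The normalized counts read 165204, 197066 and 171179.6 across the Control mice, against 245071, 275139 and 233019.9 across the LS1 mice. The LS1 library with the lowest count, replicate 3, stood above the highest Control library, replicate 2. The groups averaged 177817 ± 16936 normalized counts in Control against 251077 ± 21692 in LS1 (mean ± SD of 3 mice each), a difference of 1.41-fold (95% interval 1.15 to 1.74) on the fitted scale. The log2 fold change from limma was 0.50 ± 0.14 (standard error), with an adjusted p of 0.229, and it stayed between 0.43 and 0.57 as single libraries were dropped. DESeq2 gave an adjusted p of 0.05002, just above the threshold of 0.05.

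*Vcan* encodes versican, a lectican of loose connective tissue and of cartilage condensations before aggrecan replaces it. It lies on chromosome 13 of GRCm38 from 89655312 to 89742509, with normalized counts of 6887, 7807 and 9189 across the Control mice, against 10107, 6266 and 7820.2 across the LS1 mice. The highest and the lowest of the 6 libraries were both LS1 libraries, so the groups overlapped throughout. For *Vcan* limma gave a log2 fold change of 0.0011 ± 0.18 (standard error) with an adjusted p of 0.999, and a 95% interval of -0.40 to 0.40. This interval leaves room for a difference in either direction, and the sign of the estimate changed when Control replicate 1, Control replicate 2 or LS1 replicate 1 was left out.

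Link proteins hold the lectican head on the hyaluronan chain, and *Hapln1* encodes the cartilage link protein. *Hapln1* lies on chromosome 13 of GRCm38 from 89539796 to 89611652, with normalized counts of 119027, 118409 and 88417 across the Control mice, against 282500.4, 186430.1 and 165591 across the LS1 mice. Every LS1 library exceeded every Control library, and LS1 replicate 1 was far above the other LS1 libraries. The groups averaged 108618 ± 17497 normalized counts in Control against 211507 ± 62359 in LS1 (mean ± SD of 3 mice each), or 1.91-fold higher on the fitted scale. The 95% interval of the log2 fold change was 0.49 to 1.38. For *Hapln1* limma gave a log2 fold change of 0.94 ± 0.20 (standard error) with an adjusted p of 0.159. This fold change was the largest of the 10 genes, and it was 0.71 without LS1 replicate 1 and 1.09 without LS1 replicate 3. In the latter fit the adjusted p of *Hapln1* from limma was 0.0193, and with any other single library left out it was 0.156 to 0.373. Without LS1 replicate 3, 2 of the 10 genes, *Hapln1* and *Matn3*, had an adjusted p under 0.05 from limma, against 1.68% of all tested genes. In that fit the median log2 fold change of the 10 genes was 0.27, and 4 of them had an unadjusted p under 0.05, against 16.7% of all tested genes.

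*Hapln3* encodes a link protein of wider tissue distribution. The gene (chromosome 7 of GRCm38 from 79115102 to 79131018) had normalized counts of 506, 407 and 469 across the Control mice, against 312, 749 and 624 across the LS1 mice. LS1 replicate 1 was the lowest of all 6 libraries and the other LS1 libraries were the highest. For *Hapln3* limma gave a log2 fold change of 0.20 ± 0.30 (standard error) with an adjusted p of 0.815, with a 95% interval of -0.45 to 0.85, the widest of the 10 genes. Without LS1 replicate 1 it was 0.58, and without LS1 replicate 2 it was -0.05.

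Link protein genes lie beside lectican genes in the genome. *Acan* and *Hapln3* point towards each other on chromosome 7 with 0.002 kb between their annotated ends, and *Hapln1* and *Vcan* point towards each other on chromosome 13 with 43.7 kb between them and 0 annotated genes in the gap. The first of these pairs parted in LS1 replicate 1: *Acan* was above every Control library there and *Hapln3* below every Control library. The log2 ratio of *Hapln1* to *Vcan* ran from 3.27 to 4.11 in Control and from 4.40 to 4.89 in LS1, a difference of 0.93 (two-sided p = 0.1 by exact permutation, which is the floor for 3 mice against 3). The strand setting of the counting is not given in the sources used here, so reads running past the end of *Acan* could be counted on the far less abundant *Hapln3*.

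Matrilins are oligomeric adaptor proteins with von Willebrand factor A domains that bind aggrecan, COMP and collagen fibrils. *Matn1* and *Matn3* are cartilage matrilins, and *Matn3* is mutated in a form of multiple epiphyseal dysplasia in people. *Matn1* (chromosome 4 of GRCm38 from 130944385 to 130955475) had normalized counts of 16566, 18083 and 15333 across the Control mice, against 22919, 27345 and 27992 across the LS1 mice. The groups were separate, and the Control libraries lay close together. The groups averaged 16660.5 ± 1377 normalized counts in Control against 26085 ± 2761 in LS1 (mean ± SD of 3 mice each), or 1.56-fold (95% interval 1.27 to 1.92) higher on the fitted scale. For *Matn1* limma gave a log2 fold change of 0.64 ± 0.13 (standard error) with an adjusted p of 0.142, which was the smallest adjusted p of the 10 genes.

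*Matn3* (chromosome 12 of GRCm38 from 8947929 to 8972028) had normalized counts of 62098, 68767 and 51935 across the Control mice, against 130306, 95814 and 84788 across the LS1 mice. As for *Hapln1*, LS1 replicate 1 was the highest library and Control replicate 3 the lowest, and the groups were separate. The groups averaged 60933 ± 8476 normalized counts in Control against 103636 ± 23746 in LS1 (mean ± SD of 3 mice each), or 1.68-fold (95% interval 1.28 to 2.21) higher. The log2 fold change from limma was 0.75 ± 0.18 (standard error), with an adjusted p of 0.184, and 0.57 without LS1 replicate 1. Without LS1 replicate 3 its adjusted p from limma was 0.0313, and with any other single library left out it was 0.194 to 0.403.

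*Matn2* and *Matn4* are matrilins of wider distribution, including connective tissue outside cartilage. *Matn2* (chromosome 15 of GRCm38 from 34306677 to 34436273) had normalized counts of 3668, 3127 and 4236 across the Control mice, against 4806, 4131 and 5504 across the LS1 mice. LS1 replicate 2 was within the Control range, and the log2 fold change from limma was 0.39 ± 0.16 (standard error), with an adjusted p of 0.337. Its unadjusted p-value was above 0.05 when Control replicate 1 or 2 or LS1 replicate 3 was left out. *Matn4* (chromosome 2 of GRCm38 from 164389393 to 164405160) had normalized counts of 2909, 2470.0 and 2249.7 across the Control mice, against 2693, 2708 and 3001 across the LS1 mice. The groups overlapped, with only LS1 replicate 3 above all Control libraries, and the log2 fold change from limma was 0.15 ± 0.15 (standard error), with an adjusted p of 0.706 and a 95% interval of -0.18 to 0.47. *Matn2* and *Matn4* share 70 and 149 exon bases with a gene on the opposite strand, *9430069I07Rik* with a mean of 2.50 reads and *Rbpjl* with a mean of 49.8 reads.

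*Comp* encodes cartilage oligomeric matrix protein, a thrombospondin of cartilage, tendon and ligament that binds collagens and matrilins. The gene (chromosome 8 of GRCm38 from 70373558 to 70382066) had normalized counts of 40124, 38460.1 and 50425 across the Control mice, against 40779, 47649 and 58937 across the LS1 mice. Only LS1 replicate 3 was above all Control libraries. For *Comp* limma gave a log2 fold change of 0.19 ± 0.17 (standard error) with an adjusted p of 0.669, with a 95% interval of -0.18 to 0.55. *Hspg2* encodes perlecan, a heparan sulfate proteoglycan of basement membranes that is also found around chondrocytes. The gene (chromosome 4 of GRCm38 from 137468769 to 137570630) had normalized counts of 29493, 27915 and 26716 across the Control mice, against 28244, 38884 and 40174 across the LS1 mice. LS1 replicates 2 and 3 were above all Control libraries, while LS1 replicate 1 was within their range. The log2 fold change from limma was 0.33 ± 0.15 (standard error), with an adjusted p of 0.391, and it was 0.50 without LS1 replicate 1.

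**Figure D3:**
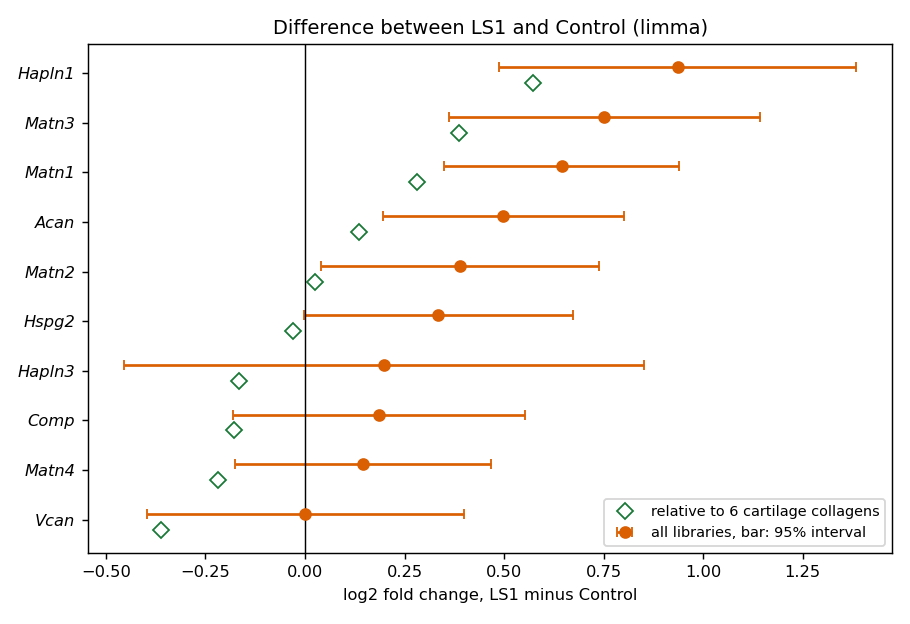
Log2 fold change of LS1 minus Control for the 10 genes from limma, as filled points with 95% intervals, and the same difference taken relative to 6 cartilage collagens as open diamonds. Filled points run from 0.0011 (*Vcan*) to 0.94 (*Hapln1*), and open diamonds from -0.36 to 0.57.

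The sequences before the RefSeq start of *Acan*, *Matn1* and *Matn3*, whose groups were separate, are shown with that of *Vcan*, the neighbour of *Hapln1* with a log2 fold change near 0, so that the starts of the genes with higher LS1 libraries can be read beside 1 whose groups overlapped. RefSeq promoters on GRCm38.p6 matched 8 of the 10 genes, not *Matn2* and *Comp*, and the 250 bases before the annotated start are given 5′ to 3′ on the strand of the gene. The RefSeq start of *Acan* lies 257 bases before the GENCODE span given above. That of *Hapln1* lies 840 bases inside its span, so the bases before it lie within the annotated gene and are not shown. They are still included in the motif counts over the 8 matched genes. The stretches shown are chr7:79052976-79053225 (plus strand), chr4:130944135-130944384 (plus), chr12:8947679-8947928 (plus) and chr13:89742513-89742762 (minus), in the order below. Capitals mark the GC box, GGGCGG on either strand, where neighbouring matches may overlap.
Acan: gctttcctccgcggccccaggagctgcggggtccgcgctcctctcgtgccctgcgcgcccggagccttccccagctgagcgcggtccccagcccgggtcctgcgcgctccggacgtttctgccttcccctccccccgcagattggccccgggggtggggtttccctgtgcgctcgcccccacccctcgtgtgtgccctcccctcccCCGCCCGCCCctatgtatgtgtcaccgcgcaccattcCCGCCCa
Matn1: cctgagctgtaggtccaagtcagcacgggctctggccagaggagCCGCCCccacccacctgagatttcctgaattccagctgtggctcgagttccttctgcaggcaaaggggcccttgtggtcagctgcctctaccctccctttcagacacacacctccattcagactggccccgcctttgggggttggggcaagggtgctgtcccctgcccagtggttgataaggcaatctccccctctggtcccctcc
Matn3: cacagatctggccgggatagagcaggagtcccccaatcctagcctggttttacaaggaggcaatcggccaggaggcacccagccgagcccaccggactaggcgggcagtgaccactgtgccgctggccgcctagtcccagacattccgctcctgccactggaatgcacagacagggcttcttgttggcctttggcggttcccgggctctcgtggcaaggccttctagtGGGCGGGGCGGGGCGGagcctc
Vcan: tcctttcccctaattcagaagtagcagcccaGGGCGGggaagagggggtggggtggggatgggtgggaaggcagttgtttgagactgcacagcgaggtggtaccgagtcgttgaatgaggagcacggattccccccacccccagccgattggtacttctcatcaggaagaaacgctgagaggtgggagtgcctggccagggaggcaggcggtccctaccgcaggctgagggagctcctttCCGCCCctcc
A GC box was present in all the stretches shown and in 6 of the 8 matched genes. These 8 genes had 9 promoters, since *Matn4* had 2, of which 1 held a GC box and 1 did not. Counted by promoter and not by gene, 32.7% of 32851 RefSeq promoters of the same length held a GC box. *Hapln1*, the gene with the largest fold change, and *Hapln3* had none. The stretch shown for *Acan* was 74.4% G and C, that for *Matn3* 65.2%, that for *Vcan* 62.4% and that for *Matn1* 62.0%. The stretch of *Hapln1* that is not shown had 54.4%, and the median over all promoters was 52.4%. The core of the SOX motif, searched as ACAATG or ACAAAG on both strands, was present in 25.2% of all promoters and in 0 of the 8 matched genes.

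To compare these genes with the rest of the cartilage matrix, each library was also scaled by the mean log2 value of 6 cartilage collagen genes, *Col2a1*, *Col9a1*, *Col9a2*, *Col9a3*, *Col11a1* and *Col11a2*. Relative to these collagens the median log2 fold change of the 10 genes was -0.0019 in place of 0.36, and that of all tested genes was -0.36. *Hapln1* was 0.57 above the collagens (standard error 0.21), *Matn3* 0.39, *Matn1* 0.28 and *Acan* 0.13 (standard error 0.15). *Vcan*, *Hapln3*, *Matn4*, *Comp* and *Hspg2* changed sign on this scale and lay between -0.36 and -0.03. Only 1 of the 10 genes, *Hapln1*, then had an unadjusted p-value under 0.05 from limma, and it was higher in LS1. The share over all tested genes was 34.8% in either direction, and the share higher in LS1 was not computed. Of the 1907 genes with an adjusted p under 0.05 on this scale, 35 were higher in LS1. The 34.8% is thus not a like background for *Hapln1*.

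Ratios to *Acan* within a library, which do not depend on the size factor, were compared for the 9 other genes. In 0 of the 9 did the groups separate, and the smallest exact permutation p was 0.2 (0.54 after Benjamini-Hochberg adjustment over the 9), where 0.1 is the smallest possible. With all libraries the ratio of *Hapln1* to *Acan* was higher in LS1 by 0.44 on the log2 scale, and by 0.19 without LS1 replicate 1, where that of *Matn1* was 0.22. The log2 ratio of *Hapln1* to *Acan* was -0.47, -0.73 and -0.95 in Control and 0.21, -0.56 and -0.49 in LS1. Only LS1 replicate 1 was outside the Control range. The ratio of *Vcan* to *Acan* differed by -0.50 on the log2 scale, and LS1 replicate 1 was within the Control range. Without LS1 replicate 2 this difference was -0.26, and that of *Matn4* was -0.26 too. In both ratios the groups overlapped.

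The LS1 libraries differed in which of the genes stood highest. LS1 replicate 1 was the highest of the LS1 libraries for *Hapln1*, *Matn3* and *Vcan* and the lowest for 5 genes, *Hapln3*, *Matn1*, *Matn4*, *Comp* and *Hspg2*. LS1 replicate 3 was the highest for 5 genes, *Matn1*, *Matn2*, *Matn4*, *Comp* and *Hspg2*, and the lowest for *Acan*, *Hapln1* and *Matn3*. LS1 replicate 3, which stood apart over all genes, was still above every Control library for *Acan*, *Hapln1*, *Matn1* and *Matn3*.

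**Figure D4:**
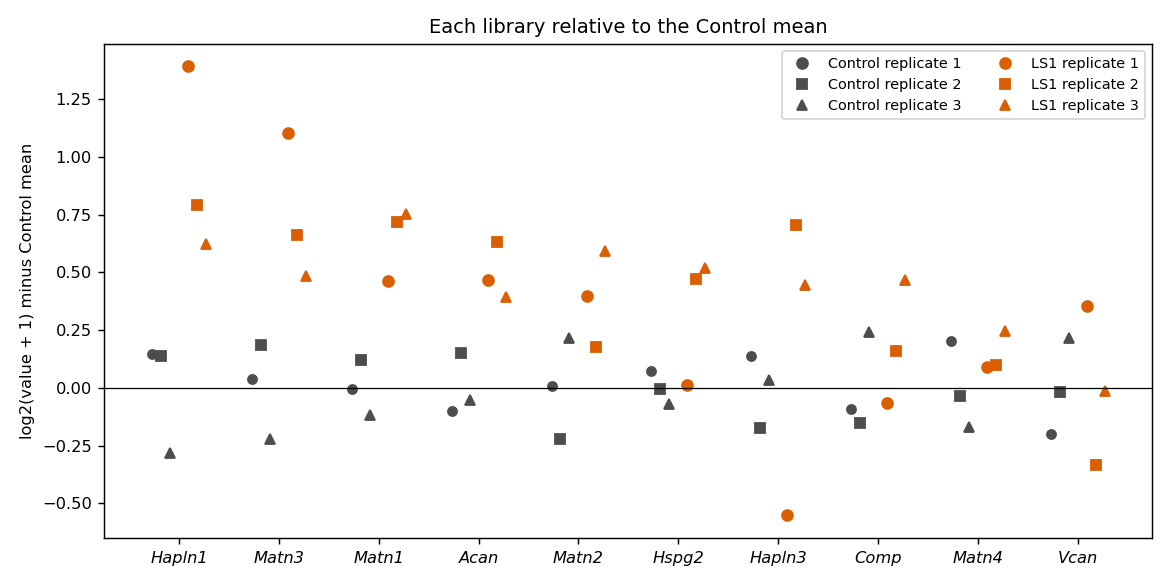
Difference of log2(value + 1) from the Control mean in each of the 6 libraries, for the 10 genes ordered by log2 fold change. LS1 replicate 1 stands highest for *Hapln1* at 1.39 and lowest for *Hapln3* at -0.55.

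Among 9704 other genes with a mean of at least 1000 reads, those most like *Acan* over the 6 libraries were named by the mean absolute difference of their centred log2 values. The 5 nearest were *Thbs3* at 0.0453, *Myd88* at 0.0512, *Slc2a1* at 0.0657, *Dixdc1* at 0.0678 and *Tdrd7* at 0.0685 log2 units. *Thbs3* encodes a pentameric thrombospondin of the same subgroup as COMP, *Myd88* an adaptor of Toll-like receptor signaling, and *Slc2a1* encodes the glucose transporter GLUT1. *Matn1* was the nearest of the members, at rank 73 with 0.107, and *Matn3* came at rank 983. *Hapln1* came at rank 3763 and *Vcan* at rank 5646. Values were centred over all 6 libraries, so the distance includes the difference between LS1 and Control. The log2 fold changes of the 5 nearest genes ran from 0.43 to 0.57, against 0.50 for *Acan*, 0.94 for *Hapln1* and 0.0011 for *Vcan*.

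Genes that make, bind or cut the same aggregates were read from 7 lists of 50 genes, of which 49 were tested. Their counts stand against the 12.9% of all tested genes with an unadjusted p under 0.05, or the 7.08% that were also higher in LS1. The other lecticans and link proteins, best known from brain, had 0 of 3 tested genes with an unadjusted p under 0.05 from limma. *Bcan* had 1901 ± 361 normalized counts in Control against 1712 ± 150.4 in LS1 (mean ± SD of 3 mice each), *Hapln4* had a log2 fold change of -0.33 (95% interval -1.84 to 1.17), and *Hapln2* was too low to test. Of 14 genes for hyaluronan synthesis, binding and breakdown, 2 (14.3%) reached that p-value, both higher in LS1, which is near the share over all genes. *Has2*, the main hyaluronan synthase of cartilage, had normalized counts of 2035, 1983 and 1716 across the Control mice, against 3465, 2682 and 2481 across the LS1 mice. Here too the groups were separate, and the log2 fold change from limma was 0.58 ± 0.16 (standard error), with an adjusted p of 0.234. *Cd44*, a hyaluronan receptor, had 13394 ± 70.9 normalized counts in Control against 17661 ± 1862 in LS1 (mean ± SD of 3 mice each), and its log2 fold change from limma was 0.39 ± 0.13 (standard error), with an adjusted p of 0.267. *Has2* shares 182 exon bases with the antisense gene *Has2os*, which had a mean of 65.5 reads.

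Of 8 genes for aggrecan-cleaving proteases and their inhibitor, 2 reached an unadjusted p under 0.05, both higher in LS1. *Adamts5*, a main aggrecanase gene, had a log2 fold change of 0.09 (95% interval -0.27 to 0.45). *Timp3*, an inhibitor of these proteases, had 5384 ± 1323 normalized counts in Control against 7867 ± 587 in LS1 (mean ± SD of 3 mice each), and its log2 fold change from limma was 0.57 ± 0.17 (standard error), with an adjusted p of 0.250. Its exons share 1733 bases with *Syn3* on the opposite strand, which had a mean of 272.5 reads. *Adamts8*, a protease with few reads here, had 19.2 ± 5.23 normalized counts in Control against 39.2 ± 11.6 in LS1 (mean ± SD of 3 mice each). Its log2 fold change was 0.98, with an adjusted p of 0.377 from limma.

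All 4 thrombospondins related to *Comp* reached an unadjusted p under 0.05 and were higher in LS1, with log2 fold changes from 0.43 to 0.64. *Thbs3* had normalized counts of 6071, 6824 and 6443 across the Control mice, against 8603, 9257 and 8217 across the LS1 mice, with separate groups, and its log2 fold change from limma was 0.43 ± 0.12 (standard error), with an adjusted p of 0.236. *Thbs2*, with separate groups too, had 14783 ± 1977 normalized counts in Control against 21619 ± 4291 in LS1 (mean ± SD of 3 mice each). *Thbs4*, a thrombospondin of tendon and muscle, had 2203 ± 371 normalized counts in Control against 3552 ± 1251 in LS1 (mean ± SD of 3 mice each), with LS1 replicate 3 within the Control range. *Thbs3* shares 318 exon bases with *Mtx1* on the opposite strand, which had a mean of 1210 reads. *Comp* itself had a log2 fold change of 0.19, and the differences between *Comp* and these genes were not tested.

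Of the 6 cartilage collagens, the 3 genes of collagen IX, to which matrilins and COMP bind, reached an unadjusted p under 0.05. *Col9a1* had 116777 ± 10289 normalized counts in Control against 192920.1 ± 22457 in LS1 (mean ± SD of 3 mice each), and its log2 fold change from limma was 0.72 ± 0.14 (standard error), with an adjusted p of 0.125. *Col9a2* and *Col9a3* had log2 fold changes of 0.58 and 0.40, and in all 3 genes the LS1 libraries were above the Control libraries. *Col2a1* had a log2 fold change of 0.24 (95% interval -0.12 to 0.59) and *Col11a2* one of -0.07. Of the SOX trio, the transcription factors that drive *Acan*, *Hapln1* and the matrilins in chondrocytes, 1 of 3 reached that p-value. *Sox9* had normalized counts of 5217, 5179 and 4249 across the Control mice, against 7818, 8501 and 4668 across the LS1 mice, with LS1 replicate 3 within the Control range, and its log2 fold change from limma was 0.48 ± 0.21 (standard error), with an adjusted p of 0.371. *Sox6* lay in the other direction with -0.31 (95% interval -0.73 to 0.12). The study did not call *Sox9* different in the RNAseq. By its qPCR in the dissected growth plate, *Sox9* was lower than in Control, significantly in LS2 but not in LS1. The paper also describes SOX9 staining in Longshanks growth plates that seemed fainter and more scattered. The higher *Sox9* counts of the LS1 epiphysis were thus not repeated in the growth plate alone. Of 11 basement membrane partners of perlecan, 3 had an unadjusted p under 0.05, *Nid2*, *Nid1* and *Lama4*, with log2 fold changes of 0.44, 0.48 and 0.39. The value of *Nid2* is uncertain, since it shares 437 exon bases with *Rtraf* on the opposite strand, which had a mean of 12253 reads. With adjustment over all genes, 0 of the 49 tested list genes passed with limma and 0 with edgeR, while 15 had an unadjusted p under 0.05 from limma, all higher in LS1, against 7.08% of all tested genes. DESeq2 called 2 of the 49, *Col9a1* and *Col9a2*, against 2.38% of all genes. Without LS1 replicate 3, limma called 3 of the 49, *Thbs4*, *Col9a1* and *Sox9*, against 1.68%.

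**Figure D5:**
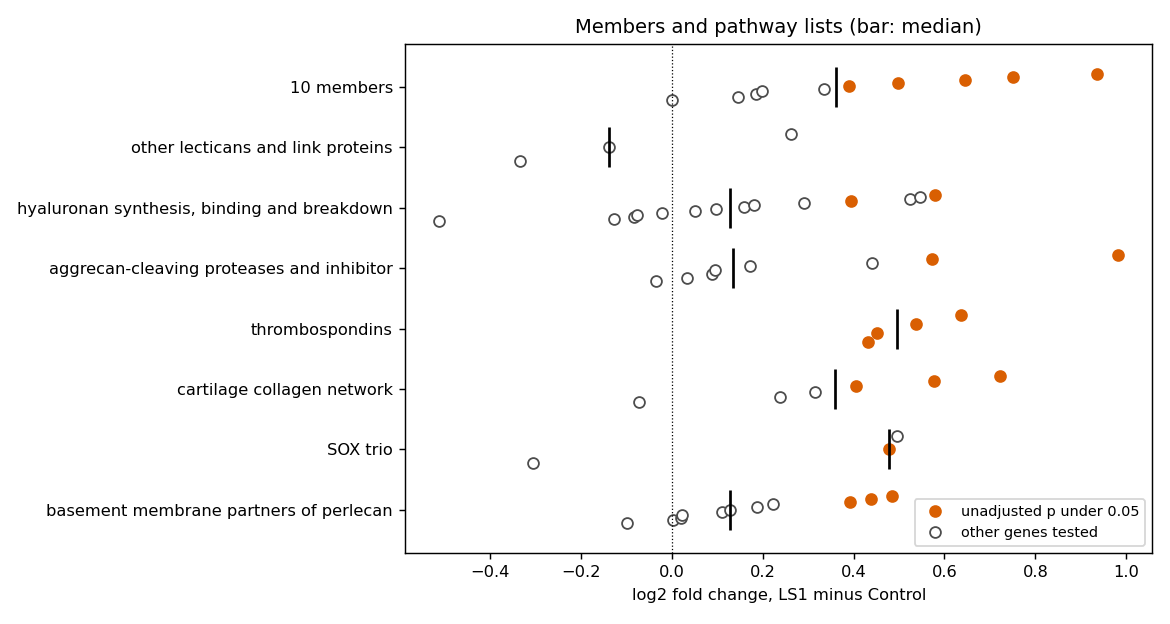
Log2 fold change of LS1 minus Control for each tested gene of the 10 members and of the 7 lists, with filled points for an unadjusted p under 0.05 from limma and a bar at the median. All 4 thrombospondins are filled, and the median of the 10 members is 0.36.

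Of 51 marker genes of cell types in the epiphysis, 17 had an unadjusted p under 0.05 from limma, against 12.9% of all tested genes in either direction. The share of all tested genes that were also higher in LS1 was 7.08%. With adjustment, 0 markers passed with limma or edgeR, and DESeq2 called 7, against 2.38% of all genes. The summed normalized counts of 10 chondrocyte markers outside the member genes ran from 2230985 to 2550483 in Control and 2690144 to 3237354 in LS1, with separate groups. The largest part of this sum was *Col2a1*, with means of 1481072 in Control and 1760553 in LS1, and its own groups overlapped. Of these 10 markers, 5 were higher at an unadjusted p under 0.05 and 4 had separate groups, while *Snorc* and *Col11a2* had log2 fold changes of 0.007 and -0.07. B cell markers summed to 35518 to 38149 in Control and 22097 to 34039.7 in LS1, with separate groups too and 4 of 5 lower. Erythroid markers summed to 231511 to 324416 in Control and 144276 to 255750.4 in LS1, with 1 of 5 lower. Muscle markers summed to 6159.7 to 16368 in Control and 3303 to 9554 in LS1, with 0 of 6 past that p-value, and tendon and ligament markers to 54691 to 62298 in Control and 61433 to 79594 in LS1, with 2 of 5 higher. Osteoblast markers summed to 2303058 to 2822019 in Control and 2062467 to 2309849.9 in LS1 and endothelial markers to 28109 to 30089 in Control and 27659 to 32037 in LS1, with 1 of 5 lower and 1 of 5 higher. Neutrophil markers summed to 133729 to 190470.4 in Control and 188550.0 to 206549 in LS1 and macrophage markers to 29255 to 45045 in Control and 41125 to 58639.8 in LS1, with 2 of 5 and 1 of 5 higher. In these 9 lists, 0 markers were at 0 in any library. The part of these values in the differences of the 10 genes was not tested.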

How the data were processed

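Polyadenylated RNA of 6 libraries was sequenced on a 5500xl instrument. Per the labels and the methods, the authors mapped the reads to GRCm38 (Ensembl release 84) with HISAT2 2.0.2, counted them with featureCounts 1.4.6 and used DESeq2. The deposited values are a signal unit, gene counts over a size factor of each library that the authors estimated. Each value was divided by that of 1 read, and 100% came out whole (tolerance 0.02). A read was worth 0.870 to 1.11 in the deposited unit. All 6 columns were used.

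Symbols and coordinates came from GENCODE M21, and *Tmem2* of the lists is *Cemip2* there. The main test was limma 3.58.1 (R 4.3.3), fitted to log2(value + 1) with trended and robust moderation, for genes with a mean of at least 20 reads, at an adjusted p of 0.05. edgeR 4.0.16 (7 genes called) and DESeq2 1.42.0 were run on recovered reads as alternatives. Ratios were compared by two-sided exact permutation tests. The fits were also run on simulated counts that held no outlying library, so that run does not speak to the effect of LS1 replicate 3. All members are named, and of each list up to 3 genes with an unadjusted p under 0.05 (smallest first), or else the 1 with the largest absolute log2 fold change, and the 5 genes most like *Acan*. *Bcan*, *Hapln2*, *Adamts5*, *Col2a1*, *Col11a2* and *Sox6* were added after their values were seen. Members and lists were chosen with earlier results of these data known. The p-values measure the spread between 3 mice per group, and not the spread between lines, since each group is 1 line.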

Additional observations from a re-analysis of the deposited data

How the results depend on the processing

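The 10 genes were refitted under 16 alternatives. *Acan*, *Hapln1*, *Matn1*, *Matn2* and *Matn3* kept a positive log2 fold change in all of them. The number of genes called at an adjusted p under 0.05 was 14 with limma, 45 without the filter on low values, 7 with edgeR, 459 with DESeq2 and 1907 with the cartilage collagen offset. It ran from 5 without Control replicate 2 to 324 without LS1 replicate 3, with 9 without Control replicate 1 and 46 without LS1 replicate 1. Of the 10 genes, 3 were called with DESeq2 and 0 to 2 with a library left out. The 5 genes with an unadjusted p under 0.05 were 1 with the collagen offset. The offset shifts every gene of a library alike, and the median of all genes with it was -0.36. Negative values were given for *Vcan* by TMM (-0.011), total reads (-0.010), limma-voom (-0.012) and the collagen offset (-0.36), and its range was -0.18 to 0.17 with a library left out. With the offset *Hapln3* was -0.16, *Matn4* -0.22, *Comp* -0.18 and *Hspg2* -0.029. The range of *Hapln3* was -0.0546 to 0.58 with a library left out. Of the ratios to *Acan*, that of *Hapln1* ran from 0.19 to 0.58, that of *Vcan* from -0.69 to -0.26, that of *Hapln3* from -0.49 to 0.061 and that of *Matn2* from -0.30 to 0.064 with a library left out. The number of the 9 ratios with separate groups, 0 with all libraries, was 2 without Control replicate 1, 3 without Control replicate 2, 1 without LS1 replicate 1 and 3 without LS1 replicate 3. Smaller groups separate more readily by chance, and no share over all genes was computed for these counts, so nothing is read from them. Where a value changed otherwise, the cause was not tested. The titles share the letters A, B and C between groups, and same-letter libraries had correlated deviations of 0.054, 0.021 and 0.22, so the letter was not taken as a pairing. With a replicate block on the letter, 12 genes were called and 6 of the 10 genes had an unadjusted p under 0.05, against 17.5% of all tested genes. Not every library correlated best with its own letter. Depth was lowest for *Hapln3* among the 10 genes, with a mean of 525 reads.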
